A study of Mus musculus with 6 samples.

Results

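The cytosolic ribosomal protein genes encode the protein subunits of the ribosome that works outside the mitochondria. They were chosen by name, as the gene symbols beginning Rps or Rpl followed by a number, with the stalk genes Rplp0, Rplp1 and Rplp2 and with Rpsa. The rule found 81 of the 23358 entries of the gene table, of which 32 belong to the small subunit, 46 to the large subunit and 3 to the stalk. They lie on 19 chromosomes. The rule did not take in Fau or the paralogs Rpl22l1, Rpl7l1 and Rpl36al, which are given beside them. The entry Rps3a, current symbol Rps3a1, was counted as a member.

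The RNA came from 6 spontaneous soft tissue tumors, all of female mice, with 3 tumors of the Osx-Cre;NT3 line and 3 of the FSP1-Cre;NT3 line. All mice carried NT3, a form of the kinase NIK that lacks its TRAF3-binding motif and that Cre switches on from the ROSA26 locus on a C57Bl/6J background. Osx-Cre, driven by the Sp7 promoter of the osteolineage and held off with doxycycline until weaning, came from a mixed C57Bl/6J and CD1 background, and FSP1-Cre, driven by the S100a4 promoter, from FVB/n. Osx-Cre;NT3 tumors 13, 18 and 25 were from the trunk, with latencies of 150, 168 and 115 days. FSP1-Cre;NT3 tumor 29 was from the trunk, with a latency of 72 days, and tumors 27 and 36 were perineal, with 101 and 52 days. Strain background and latency differed along with the line, and both perineal tumors were FSP1-Cre;NT3, so these cannot be told apart. No tumor-free tissue was analysed here.

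Ribosomes are built in the nucleolus from ribosomal RNA and one copy of nearly every ribosomal protein, so these genes are transcribed at high and matched levels in growing cells. Their mRNAs begin with a C followed by a run of pyrimidines, the terminal oligopyrimidine (TOP) motif, through which mTORC1 and the protein LARP1 set their translation and stability. Translation factors such as eEF1A and eEF2 share the motif. The mRNAs are short, so their measured level in an RNA-seq library can follow any property of that library that depends on transcript length.

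Total counts per tumor ranged from 51824408 to 163297772, so depth adds little error to genes of this level, and every count was even. The ribosomal RNA precursor entry Rn45s took from 5.28% of counts in tumor 13 to 13.3% in tumor 36. The submitters' design text gives a lower average RNA integrity for the Osx-Cre;NT3 tumors than for the FSP1-Cre;NT3 tumors. Tumor 36 stood apart in marker genes of other cell types. Its summed level of 7 simple epithelial markers was 4931 CPM, a count scaled to the size of the library, against 667 to 1292 elsewhere. Krt8, Krt19, Epcam, Cldn3 and Cldn7 were highest there, but Krt18, at 245 CPM, was below tumor 18, at 444 CPM. Cldn4, at 60.2 CPM, was lower there than in any other tumor. Its 6 smooth muscle and myoepithelial markers summed to 2319 CPM against 240 to 547, with Oxtr alone higher in another tumor. Its 6 leukocyte markers summed to 620 CPM against 125 to 301 elsewhere, mostly through S100a8 and S100a9, at 165 and 269 CPM. Cd79a and Ptprc were also highest there, Ptprc at 115 CPM against 113 CPM in tumor 27, while Cd68 and Cd3e were not. Its 6 adipocyte markers summed to 171 CPM against 3.02 to 55.7. The sum of its 6 basal keratinocyte markers, at 5777 CPM against 10067 to 14519, was lowest, as were Krt5, Krt14, Krt15 and Trp63. Its Itga6, at 185 CPM, was below tumor 25 alone, and its Itgb4, at 239 CPM, was above tumor 18, at 177 CPM. Fibroblast markers summed to 5194 to 6742 CPM in the Osx-Cre;NT3 and 11545 to 15001 CPM in the FSP1-Cre;NT3 tumors. All genes of these 6 lists, fibroblast markers included, were detected, and their part in the member levels was not tested. The sum of 9 proliferation markers was lowest in tumor 27, at 543 CPM, and highest in tumor 18, at 873 CPM, but single genes differed. Mki67 and Top2a were highest in tumor 36, at 214 and 173 CPM, and lowest in tumor 13. Mcm2 was highest in tumor 25, and Mcm5 and Pcna were lowest in tumor 29. Because these are bulk samples, fewer cells of a type and less RNA per cell cannot be told apart.

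The start regions of 6 members are shown because the family is known for a pyrimidine run at the transcription start. RefSeq promoter windows, on build GRCm38.p6 and reaching from 250 bases before to 50 bases after a start, were found for 61 of the 81 members, with 73 windows. Each sequence below runs from 40 bases before to 20 bases after the annotated start. Capitals mark the first C followed by at least 6 pyrimidines that begins within 20 bases of the start on the coding strand. Any part of the run further upstream and any later run are left in lower case, as both are in Rps27l. Rpl35 and Rpl14 are large subunit genes, Rplp2 a stalk gene and Rps27 a small subunit gene. Rps27l is a p53-inducible paralog of Rps27, and Rpl3l a muscle-restricted paralog of Rpl3.
Rpl35 (chr2:39005112-39005171, minus strand): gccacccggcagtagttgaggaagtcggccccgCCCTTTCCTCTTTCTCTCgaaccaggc
Rpl14 (chr9:120571477-120571536, plus strand): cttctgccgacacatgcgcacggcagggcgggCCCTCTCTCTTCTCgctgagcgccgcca
Rplp2 (chr7:141447611-141447670, plus strand): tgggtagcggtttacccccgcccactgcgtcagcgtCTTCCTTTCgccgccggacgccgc
Rps27 (chr3:90213629-90213688, minus strand): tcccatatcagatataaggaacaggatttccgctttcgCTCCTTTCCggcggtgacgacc
Rps27l (chr9:66946046-66946105, plus strand): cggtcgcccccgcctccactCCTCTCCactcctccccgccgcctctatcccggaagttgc
Rpl3l (chr17:24727786-24727845, plus strand): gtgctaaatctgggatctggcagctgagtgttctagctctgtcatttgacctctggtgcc

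In the first 4 of these genes the run lay across the start. In Rps27l the marked run and the later one ended before the start, and neither of the 2 Rpl3l windows held one. Such a run was found in 37 of the 73 windows, or 50.7%, and in 21.2% of all 32851 windows. The letters CCGGAAG, the core bound by ETS factors, were found on either strand in 37% of the member windows and in 8.86% of all windows. For AAGATGG, the core bound by YY1, the shares were 15.1% and 6.34%, and for TATAAA 8.22% and 13.6%. These matches describe the windows and do not show that a factor was bound.

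Across members the levels were high. Per length, as reads scaled to gene length and library size (RPKM), the median of the members' means over the 6 tumors was 1144 RPKM, against 1.64 RPKM for all entries, and 62 of the 81 were among the 100 entries with the highest means. The highest means belonged to Rps12, a small subunit protein, at 2898 ± 1332 RPKM (SD, n = 6), and Rpl41, the shortest ribosomal protein, at 2663 ± 1448 RPKM. They were followed by Rpl39 at 2456 ± 1620 RPKM, Rplp1 at 2332 ± 994 RPKM and Rpl13a at 2329 ± 1177 RPKM. The spread between tumors was larger than the gaps between these 5 genes.

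Only 10 members had a mean under 100 RPKM. They were the paralogs Rpl10l, Rpl3l and Rpl39l with Rps27, Rpl26, Rpl34, Rpl30, Rps15a, Rps23 and Rpl31. Rps27 was measured at 3.97 ± 1.09 RPKM, Rpl26 at 7.96 ± 3.87 RPKM and Rpl34 at 10.5 ± 2.57 RPKM (n = 6), although each encodes a core subunit. Members have many near-identical copies in the genome, and how reads that match several places were treated is not known here, so these low levels are uncertain. In GENCODE M21 transcripts, a median of 34.5% of the 50-base stretches of a member also occurred in the transcripts of another gene, from 0% for 3 members to 85.5% for Rpl36a. The share was 46.2% for Rps27, 44% for Rpl26 and 11% for Rpl34, but 64.6% for Rps12, the highest member. For Rps15a the table gave a length of 5134 bases against a median transcript length of 638.5 bases in GENCODE, so its 36.3 RPKM is scaled by a length far above its mRNA.

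The share of all counts that fell on the 81 genes was 12.4% in tumor 13, 14.3% in tumor 18, 5.41% in tumor 25, 6.67% in tumor 27, 7.88% in tumor 29 and 6.17% in tumor 36. Tumors 13 and 18 stood above the other 4, and tumor 25, of the same line, was lowest, 2.64-fold below tumor 18. The mean was 10.7% ± 4.67 (SD, n = 3) in Osx-Cre;NT3 and 6.90% ± 0.882 (n = 3) in FSP1-Cre;NT3 tumors, so the lines overlapped and the spread within Osx-Cre;NT3 exceeded the difference between the means. By site it was 9.99% ± 4.07 (n = 4) in trunk and 6.42% ± 0.355 (n = 2) in perineal tumors. Weighting by length, as a share of summed RPKM, gave 26.4%, 29.2% and 15.8% in tumors 13, 18 and 25, against 18.6%, 21.1% and 17.2% in tumors 27, 29 and 36, in the same order. Tumors 13 and 18 had the longest latencies and the 2 lowest shares of Rn45s, 5.28% and 6.40%, and whether either bears on the member share was not tested.

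**Figure D1:**
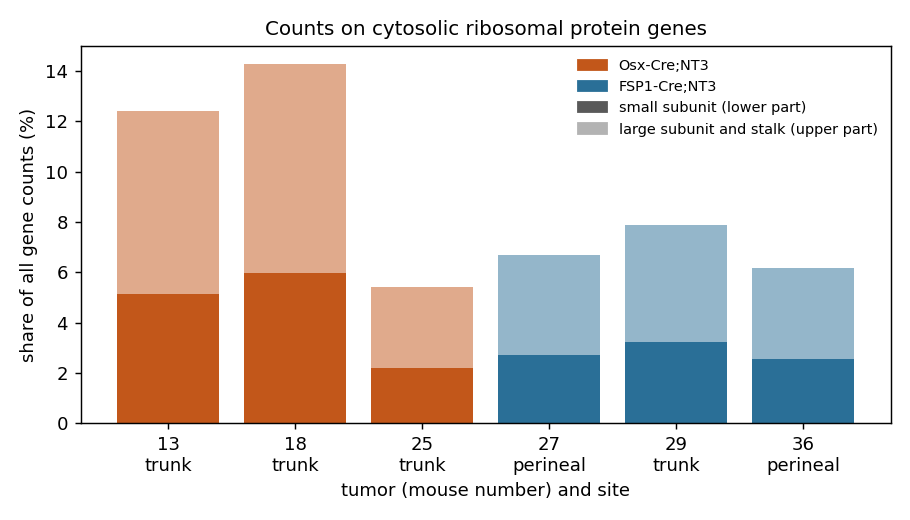
Share of all gene counts (%, vertical axis) on the cytosolic ribosomal protein genes in each tumor (horizontal axis: tumor number, taken as that of the mouse, and site). The small subunit is the lower part and the large subunit with the stalk the upper part of each bar, and colour gives the line. Tumors 13 and 18 reached 12.4% and 14.3%, and the other 4 lay between 5.41% and 7.88%.

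The members moved as one block between tumors. On the log2 CPM scale, each gene's deviation from its own mean over the 6 tumors had a median over the 80 members tested of 0.72 in tumor 13, 0.87 in tumor 18, −0.65 in tumor 25, −0.42 in tumor 27, −0.12 in tumor 29 and −0.38 in tumor 36. Tumors 13 and 18 were the 2 highest of the 6 for 78 of the 80 members, as they were for 20.3% of all 16415 genes tested. The exceptions were the paralogs Rpl3l and Rpl39l. Tumor 25 was the lowest for 73 members, against 18.7% of all genes. The exceptions were Rps2, Rps27l and Rpl3l, lowest in tumor 27, and Rpl3, Rpl4, Rpl34 and Rps19, lowest in tumor 36.

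A first principal component carried 95.6% of the variance of the 80 members over the tumors. The median SD of log2 CPM over the 6 tumors was 0.65 for members and 0.47 for all genes. Once the median of the members in each tumor was taken off, the median SD of a member was 0.11. Small and large subunits could hardly be separated. Counts on small subunit genes were from 0.682 of those on large subunit and stalk genes in tumor 25 to 0.717 in tumor 18. The highest tumor exceeded the lowest by 1.94-fold for Rpl34 at the least and 6.31-fold for Rpl3l at the most, with a median of 2.84-fold.

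**Figure D2:**
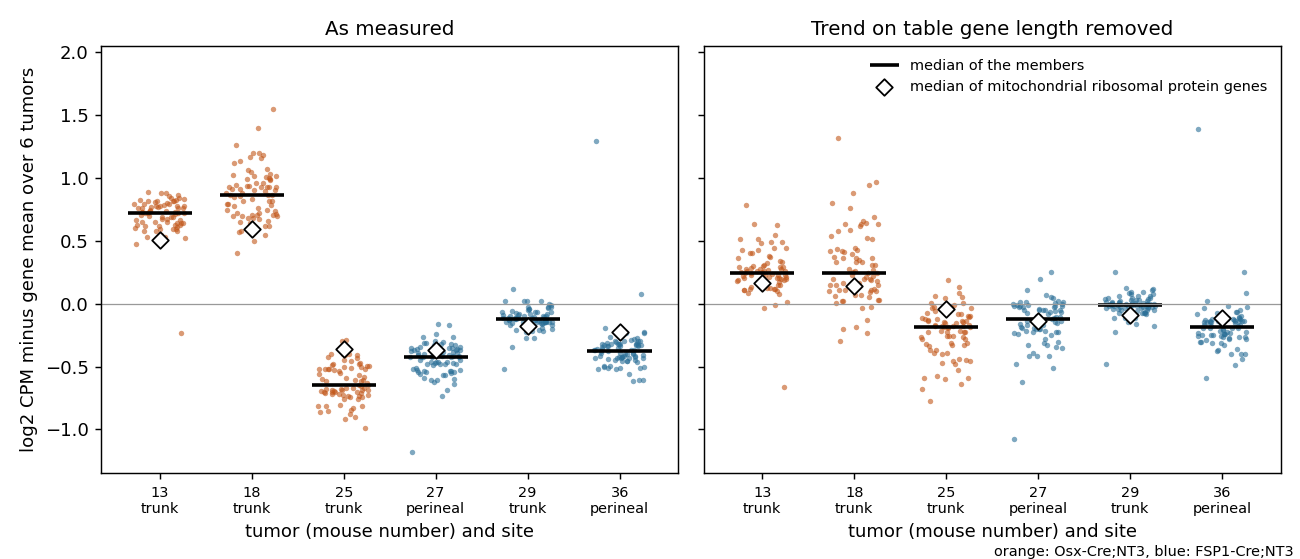
Deviation of each of the 80 members (points) from its own mean over the 6 tumors in log2 CPM (vertical axis), by tumor (horizontal axis, colour giving the line), as measured (left) and with each library's trend on gene length removed (right). Bars are medians of the members and diamonds medians of 76 mitochondrial ribosomal protein genes. The medians for tumors 13 and 18 were 0.72 and 0.87 as measured and 0.24 in both tumors with the trend removed.

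The comparison of the lines asks whether tumors that arose under the Osx-Cre and FSP1-Cre drivers differ in these genes. All 80 members tested had a lower fitted level in FSP1-Cre;NT3 than in Osx-Cre;NT3 tumors. The median log2 fold change was −0.74, with a range from −1.20 for Rpl39 to −0.04 for Rpl3l. With scaling by library size alone it was 79, as Rpl3l turned. Over all genes tested the median was 0.01, and 48.9% of genes lay below 0. No member passed edgeR's quasi-likelihood test at an adjusted p of 0.05, and neither did any other gene, a background of 0%. The smallest adjusted p of a member was 0.458. At an unadjusted p under 0.05, 1 member, Rps27l, was lower, or 1.25% of members against 3.47% of all genes. DESeq2 called 0 members, although 15 were lower at an unadjusted p under 0.05, 18.8% of members against 5.98% of all genes, and it called 2.56% of all genes. No member had every FSP1-Cre;NT3 tumor below every Osx-Cre;NT3 tumor, which 7.97% of all genes did, because tumor 25 was low. Tumor 25 was the lowest for 73 members, so leaving it out widens the difference in advance, and the median without it was −1.13. No member was called without it, against 0% of all genes. Without tumor 18 the median was −0.50.

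Among small subunit genes the median log2 fold change between lines was −0.76, with all 32 below 0. Rps14, whose loss of one copy underlies the anaemia of the 5q− syndrome, was measured at 2610, 3606 and 833 CPM in tumors 13, 18 and 25 and at 1022, 1354 and 1062 CPM in tumors 27, 29 and 36. Its level in tumor 25 was below all 3 FSP1-Cre;NT3 tumors, and the fitted log2 difference was −1.04 ± 0.51 (SE, edgeR adjusted p = 0.466). Rps7, a binding partner of Mdm2, had 3169, 3911 and 985 CPM in Osx-Cre;NT3 and 1177, 1673 and 1185 CPM in FSP1-Cre;NT3 tumors, with a log2 difference of −0.999 ± 0.503. Rps12 followed the same order of groups, with 3001, 3293 and 1088 CPM against 1237, 1560 and 1283 CPM. Rps2, a protein at the mRNA entry channel, varied less. It had 2045, 2230 and 1164 CPM in Osx-Cre;NT3 and 1136, 1221 and 1144 CPM in FSP1-Cre;NT3 tumors, and its log2 difference was −0.63 ± 0.30 (edgeR adjusted p = 0.465). Rps27 differed least of the 32, by −0.40 ± 0.43, on counts uncertain for the reason given above.

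Rpsa is both a small subunit protein and a laminin receptor precursor. It was measured at 4173, 4915 and 1808 CPM in tumors 13, 18 and 25 and at 2095, 2647 and 1899 CPM in tumors 27, 29 and 36. The 4 lower tumors spanned less than the distance to tumor 13, and the lines differed by −0.71 ± 0.41 on the log2 scale (edgeR adjusted p = 0.492).

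The 45 large subunit genes tested had a median log2 fold change of −0.76, again with all below 0. Rpl39, a small protein lining the peptide exit tunnel, had the largest difference, with 1902, 2719 and 561 CPM in Osx-Cre;NT3 and 621, 854 and 783 CPM in FSP1-Cre;NT3 tumors. Tumor 25 was again the lowest of all, and the fitted log2 difference was −1.20 ± 0.54 (SE, edgeR adjusted p = 0.463). Rpl35, which sits at the tunnel exit, had 1385, 1650 and 456 CPM against 498, 649 and 527 CPM, a log2 difference of −1.06 ± 0.46. Rpl41 had 2281, 3012 and 835 CPM against 873, 1107 and 1048 CPM, a difference of −1.02 ± 0.46. Rpl27 had the second smallest unadjusted p of the members. It was measured at 921, 919 and 417 CPM in Osx-Cre;NT3 and at 440, 440 and 443 CPM in FSP1-Cre;NT3 tumors, a difference of −0.77 ± 0.33 (edgeR adjusted p = 0.458). Rpl13a, also known for gene-specific translational control in the interferon response, had a log2 difference of −0.88 ± 0.48. At the other end Rpl8 differed by −0.52 ± 0.31, Rpl14 by −0.55 ± 0.33 and Rpl34 by −0.50 ± 0.32.

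The stalk recruits translation factors to the large subunit. Rplp0, its base, was measured at 3343, 3619 and 1678 CPM in tumors 13, 18 and 25 and at 2008, 2334 and 1906 CPM in tumors 27, 29 and 36. Its log2 difference of −0.47 ± 0.34 (SE, edgeR adjusted p = 0.568) was among the 4 nearest to 0. Rplp1 had 2171, 2262 and 749 CPM against 917, 1221 and 1005 CPM, and Rplp2 177, 172 and 88.4 CPM against 105, 106 and 89.1 CPM. Both proteins form the stalk's paired dimers, yet Rplp2 was 221 ± 62.9 RPKM per length against 2332 ± 994 RPKM for Rplp1. Their log2 differences were −0.72 ± 0.43 and −0.55 ± 0.29.

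The 4 members on the X chromosome were on either side of the members' median. Rpl39 and Rpl36a were below it, at −1.20 ± 0.54 and −1.0 ± 0.52, and Rpl10 and Rps4x above it, at −0.65 ± 0.34 and −0.55 ± 0.37. Rpl10 had 2514, 2716 and 1222 CPM in Osx-Cre;NT3 and 1318, 1523 and 1269 CPM in FSP1-Cre;NT3 tumors.

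The tissue-restricted or inducible paralogs did not share one pattern. Rps27l was measured at 388, 399.7 and 157 CPM in tumors 13, 18 and 25 and at 152, 189 and 161 CPM in tumors 27, 29 and 36. It had the smallest unadjusted p of all members, with a log2 difference of −0.91 ± 0.37 (SE, edgeR adjusted p = 0.458). Its pattern was that of the constitutive members. Rpl39l, the testis-enriched paralog of Rpl39, reached 9.73 CPM in tumor 18 and 1.66 to 3.50 CPM in the other 5, and without tumor 18 its difference turned from −0.61 ± 0.67 to 0.47. Rpl3l was measured on few counts, with 26, 104 and 14 counts in Osx-Cre;NT3 and 10, 20 and 62 counts in FSP1-Cre;NT3 tumors. Its highest level, 0.969 CPM, was in tumor 36. Skeletal muscle markers there summed to 408 CPM against 36.5 to 128 CPM elsewhere. Most of that sum was Des, at 293 CPM against 9.52 to 17.9 CPM in the other tumors, so the contrast in the sums rests on Des. Of the 128 CPM in tumor 29, Myh1 made up 84.2 CPM. Acta1, Ckm, Myh2, Tnnt3, Tnnc2 and Ryr1 were also highest in tumor 36, but Myh1, Myh4, Mylpf and Myod1 were not. The part of muscle RNA in the Rpl3l level was not tested. Rpl10l, an autosomal testis paralog of Rpl10, had 2 counts in tumor 25 and 0 in the other 5, and it was not tested. Such counts allow levels of up to 0.0184 to 0.0579 CPM (3 counts, counting error only). As every count was even, these limits would be higher if each read pair added 2 counts.

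**Figure D3:**
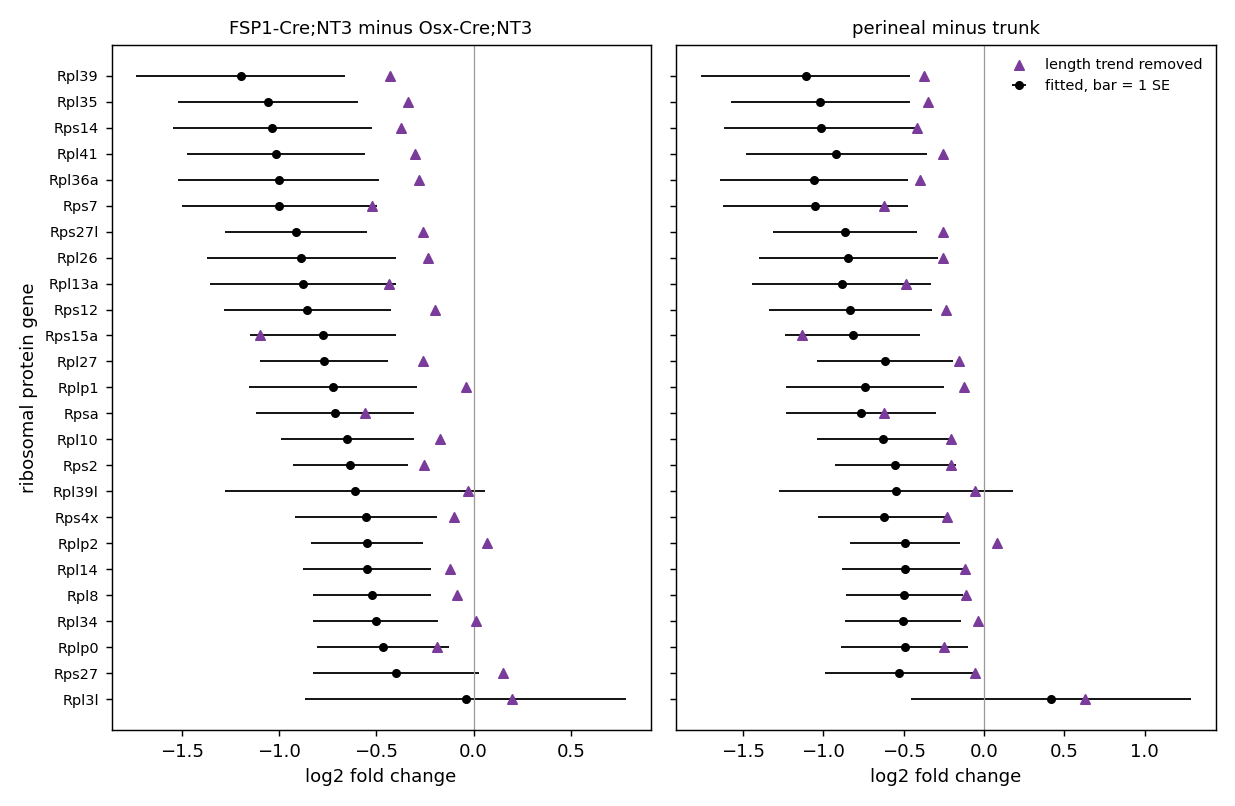
Fitted log2 fold change (horizontal axis) of 25 named members (vertical axis) between lines (left) and sites (right). Circles with bars are the edgeR estimate ± 1 SE and triangles the estimate with the length trend removed. Between lines all circles lay below 0, from −1.20 for Rpl39 to −0.04 for Rpl3l, or 0.05 for Rpl3l with scaling by library size alone. With the trend removed Rps15a lay lowest at −1.10, against −0.77 before. That correction used its table length of 5134 bases, far above its median transcript length of 638.5 bases.

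The members are short. Their median length in the table was 710 bases, against 2238 for all entries, and 62 of the 81 were under 1000 bases, as were 19.8% of all entries. Genes outside the family depended on length in the same tumors. Among genes in neither ribosomal family, the rank correlation of a gene's deviation with its table length was −0.41 in tumor 13, −0.48 in tumor 18, 0.41 in tumor 25, 0.36 in tumor 27, 0.15 in tumor 29 and 0.12 in tumor 36. The 2 tumors with the highest members were thus those in which short genes in general were high, and tumor 25, lowest in the members, had the opposite slope. These correlations are over genes of one library and describe it only. In tumor 18, genes of 500 to 750 bases had a median deviation of 0.65 and those over 5000 bases −0.51, and in tumor 25 the same bins had −0.48 and 0.34.

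Among the members the slope differed by tumor and by bin. Between lines their median log2 fold change was −0.87 up to 500 bases, −0.78 at 500 to 750 bases and −0.68 at 750 to 1000 bases, and from −0.71 to −0.80 in the longer bins. In tumor 18 the median deviation of the members was 0.88, 0.86, 0.82 and 0.80 in the first 4 bins, up to 1500 bases, and 0.86 and 1.00 in the next 2, which held 5 and 2 members. In tumor 25 the same 6 bins had −0.69, −0.62, −0.59, −0.60, −0.70 and −0.71. Members deviated further than genes of their own length bin in tumors 13, 18, 25, 27 and 36 in every bin that held any. In tumor 29 members and other genes lay close together, apart from the bin up to 500 bases, where the medians were −0.16 and 0.21. Rps15a, the only member over 5000 bases in the table, deviated by 0.94 in tumor 18 and −0.52 in tumor 25, as the short members did. The rank correlation of log2 fold change between lines with table length was 0.30 over the other genes and 0.23 over the 80 members, and the sites gave 0.12 over the members.

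**Figure D4:**
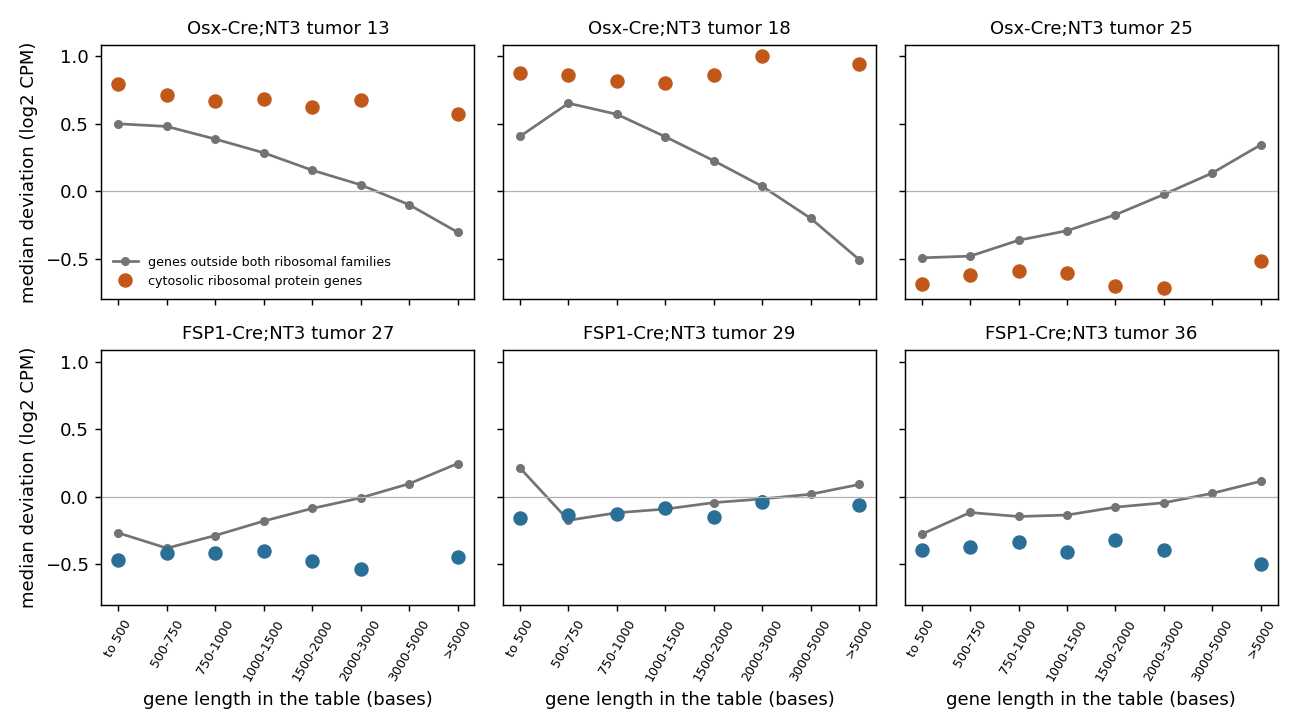
Median deviation from the gene mean in log2 CPM (vertical axis) by gene length in the table (horizontal axis, 8 bins in bases) in each tumor, for genes outside the cytosolic and mitochondrial ribosomal families (grey line) and for the members (coloured points). From 500 bases on, the grey line ran down with length in tumors 13 and 18 and up in tumor 25, while the members stayed between 0.80 and 1.00 in tumor 18 and between −0.71 and −0.52 in tumor 25.

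When each library's trend on table length, fitted on genes outside the family, was removed, the median log2 fold change of the members between lines was −0.22 and 76 of the 80 lay below 0. Rps27, Rpl34, Rplp2 and Rpl3l lay above 0. No member was called, as no gene was, 0% of the background. None had an unadjusted p under 0.05, while 5.2% of all genes were lower at that level. The medians of the members by tumor were then 0.24, 0.24 and −0.19 in tumors 13, 18 and 25, against −0.12, −0.01 and −0.19 in tumors 27, 29 and 36, and tumors 13 and 18 were still above the other 4. The size of what remained depended on which length was used. With the median length of GENCODE M21 protein-coding transcripts, known for 85.6% of the genes tested, the median between lines was −0.52, with 79 of the 80 below 0. Rps27l had the smallest unadjusted p of the members here, at −0.68 ± 0.28 on the log2 scale, with an edgeR adjusted p of 0.421, above 0.05.

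The comparison of sites sets 2 perineal against 4 trunk tumors. Of the 80 members 79 were lower in perineal tumors, against 51.5% of all 16971 genes tested, with a median log2 fold change of −0.75 and a range from −1.11 for Rpl39 to 0.42 for Rpl3l. The median over all genes was −0.02. No member was called by edgeR, against 0% of all genes, and 0 were lower at an unadjusted p under 0.05, against 1.63%. DESeq2 called 0 members, none of them with an unadjusted p under 0.05, and 3.53% of all genes. With the length trend removed the median was −0.26. No member was called (0% of all genes), and 0 were lower at an unadjusted p under 0.05, against 2.79% of all genes. Both perineal tumors were below every trunk tumor for 1 member, Rps2, and for 9.6% of all genes. The 2 perineal tumors were close to each other, with a mean of 6.42% ± 0.355 of counts on the family.

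Because both perineal tumors were FSP1-Cre;NT3, the comparison was repeated with the line as a covariate, and the median was −0.31. Within the FSP1-Cre;NT3 tumors, 2 perineal against 1 trunk, it was −0.30. Between lines, site as a covariate gave a median of −0.60, and the trunk tumors alone, 3 against 1, gave −0.58. These medians are effect sizes alone, as some of these fits leave 1 tumor in a group. The 2 comparisons share tumors 27 and 36 on one side and 13, 18 and 25 on the other, and are not independent of each other.

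Rps15a and Rps27l had the smallest unadjusted p between sites, 0.0926 and 0.0932. Rps15a, a small subunit protein, was measured at 325, 419, 152 and 209 CPM in the trunk tumors 13, 18, 25 and 29 and at 160 and 154 CPM in the perineal tumors 27 and 36. The perineal values lay between those of trunk tumors 25 and 29, and the log2 difference was −0.82 ± 0.42 (SE, edgeR adjusted p = 0.543). Rplp0, Rplp2 and Rpl14 were, after Rpl3l, the members nearest to 0, each at −0.49.

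Other genes of the translation machinery were counted from lists. The 4 listed ribosomal protein genes outside the rule had a median log2 fold change between lines of −0.78, with all 4 below 0, and of −0.26 with the length trend removed. Fau, which encodes a small subunit protein fused to a ubiquitin-like one, was at −0.82 ± 0.39 and Rpl22l1, a paralog of Rpl22, at −0.84 ± 0.38. Rpl7l1, a ribosome biogenesis factor related to Rpl7, was the nearest to 0, at −0.40 ± 0.20. None of the 4 was called or had an unadjusted p under 0.05.

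The 76 genes of the mitochondrial ribosome, which serve the mitochondrion's own translation, had a median of −0.55, with all 76 below 0. At an unadjusted p under 0.05, 8 were lower, against 3.47% of all genes, and 0 were called. Mrps33 was at −0.99 ± 0.40 and Mrpl33 at −0.89 ± 0.39, and Mrps6 at −0.09 ± 0.34 and Mrps2 at −0.13 ± 0.18. Their median table length was 1053 bases, and with the length trend removed their median was −0.18, against −0.22 for the cytosolic members. Of all 16415 genes tested, 2044 then had an unadjusted p under 0.05 in either direction, as did 4 of the 76. By tumor the medians of the 76 were 0.50, 0.60 and −0.36 in tumors 13, 18 and 25, against −0.37, −0.17 and −0.22 in tumors 27, 29 and 36.

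The 20 translation factor and other TOP mRNA genes had a median of −0.45, with all 20 below 0 and none with an unadjusted p under 0.05. Eif3e, a subunit of the initiation factor eIF3, was at −0.76 ± 0.35 and Naca, a chaperone of nascent chains, at −0.74 ± 0.35. Eif4b was at −0.12 ± 0.18 and Hnrnpa1, an RNA-binding protein, at −0.08 ± 0.29. Their median table length was 1841 bases, and with the length trend removed the median was −0.26. The 30 ribosome biogenesis genes had a median of −0.26, with 24 below 0 and none with an unadjusted p under 0.05. Among them Npm1, a nucleolar chaperone, was at −0.67 ± 0.34 and Nip7 at −0.60 ± 0.33, and Polr1b, a subunit of RNA polymerase I, at 0.19 ± 0.34 and Utp20 at 0.18 ± 0.38. With the length trend removed the median of the 30 was −0.18, with 29 below 0.

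The 12 regulators of TOP mRNA translation, a list around mTORC1, LARP1 and the eIF4E-binding proteins, had a median of 0.02, with 5 below and 7 above 0. Rheb, the GTPase that activates mTORC1, was the only one with an unadjusted p under 0.05, at −0.58 ± 0.19 (edgeR adjusted p = 0.458). Eif4ebp1 was at −0.38 ± 0.23, and Larp1 and Eif4ebp2 were at 0.43 ± 0.41 and 0.56 ± 0.51. Their median table length of 4756 bases was the longest of these lists, and with the length trend removed the median was −0.05, with 7 below and 5 above 0.

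**Figure D5:**
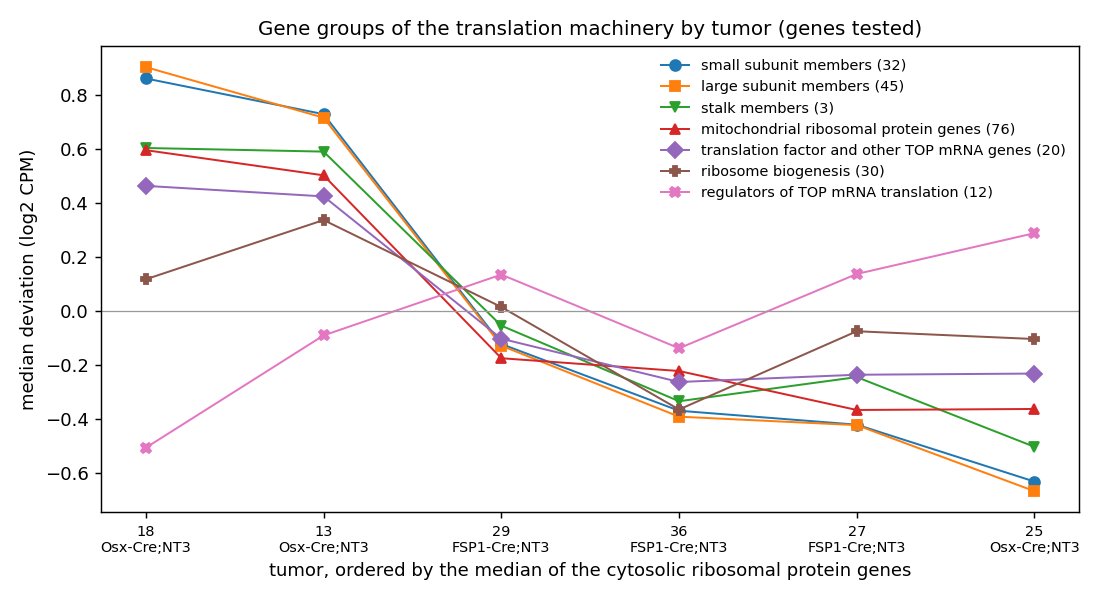
Median deviation from the gene mean in log2 CPM (vertical axis) of 7 gene groups of the translation machinery in each tumor, with the tumors ordered by the median of the cytosolic ribosomal protein genes (horizontal axis). The small and large subunit lines nearly coincided, the mitochondrial ribosomal and TOP mRNA genes lay closer to 0 in tumors 13, 18 and 25, and the regulators of TOP mRNA translation were at −0.51 in tumor 18 and 0.29 in tumor 25.

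The features that the naming rule did not use divided the members little. The 35 members tested with a pyrimidine run near a start had a median log2 fold change between lines of −0.74, and the 25 with windows but without one −0.71. The other 20, with no window or on chromosome 18, could not be placed in this division and had a median of −0.82. The 21 members that shared over 50% of their 50-base stretches with other genes had a median of −0.70, and the other 59 of −0.77. The 3 members whose table length was over 2 times their median transcript length, Rpl13a, Rpl15 and Rps15a, had a median of −0.82, and of −0.66 with the trend on table length removed, a correction that is set by those lengths. No test was made of these divisions.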

How the data were processed

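The authors deposited 1 table with unnormalised read counts per gene, RPKM values and a gene length. The paper's methods name HISAT2 and featureCounts on mm10, each at its standard settings, while the submitters' processing notes name bcl2fastq, TopHat2 2.0.6 and HTSeq, so which made the table is not settled. By its defaults featureCounts ignores strand and leaves out multiply matching reads, but whether that holds for this table is not settled. The annotation is not given in the sources used here. All counts are even, as when both ends of a pair are counted, and the RPKM values deposited by the authors rest on library totals of which gene counts make up 77.2% to 81.5%. RPKM was used only for levels between genes.

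Members and lists were chosen with earlier results of these data known. The test on counts was that of edgeR 4.0.16 (R 4.3.3; filterByExpr, TMM, glmQLFit, glmQLFTest), with Benjamini-Hochberg adjustment over all genes tested at 0.05. CPM use TMM-scaled library sizes, and log2 CPM a prior count of 2. Length trends were lowess curves (span 0.3) of log2 CPM deviation on log2 length, fitted on non-members and entered as offsets. Scripts were tested on simulated data. Of 132 list genes, 131 were found. Named members are the 5 highest and 5 lowest in RPKM, X-linked genes, paralogs, Rpsa and the stalk, and per contrast the 4 largest and 4 smallest differences and 2 smallest p, with the 4 most and 4 least variable. Each tumor carries its own number, taken here as that of a separate mouse, and p-values measure the spread between these tumors. With 3 tumors a line, their number limits precision more than depth. DESeq2 1.42.0, other scalings, filters, covariates and leaving out each tumor were alternatives. The trend on GENCODE M21 transcript length was added after seeing the data.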

Additional observations from a re-analysis of the deposited data

How the results depend on the processing

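The counts of members called, 0 between lines and 0 between sites, were 0 under every alternative run. The main edgeR fits called 0% of all genes, and DESeq2 called 2.56% between lines and 3.53% between sites. Where no gene was called, a count of 0 is not particular to the members. No paired analysis was possible because the lines share no tumor numbers. The median log2 fold change of members between lines ranged from −1.13 (without tumor 25) to −0.50 (without tumor 18) when 1 tumor was left out, and between sites from −1.01 to −0.52, with the same tumors left out. Scaling by library size alone moved the median of all genes between lines to 0.13, and the members' median relative to it was −0.73. The rank correlation of fold change with length between lines ranged from 0.14 to 0.41 without 1 tumor. The members' mean share of summed RPKM was 23.8% in the Osx-Cre;NT3 line and 19% in the other. Their mean share of counts, 10.7% and 6.90% with all tumors, ranged without 1 tumor from 8.9% to 13.3% and from 6.42% to 7.27%. Of 950 recomputed differences of 25 named members, 936 kept their direction and none passed the threshold. The other 14 turned. Between lines Rpl3l turned to 0.054 with library sizes alone, 0.20 with the trend on table length removed, 0.22 with that on transcript length, and 0.06, 0.32, 0.33 and 0.20 without tumors 13, 18, 27 and 29. With the trend on table length removed, Rpl34, Rplp2 and Rps27 turned to 0.013, 0.069 and 0.15, and Rplp2 to 0.079 between sites. Rpl39l turned to 0.47 between lines and 0.21 between sites without tumor 18, and its leave-one-out values began at −1.08 and −0.87, without tumor 25. Rpl3l was −1.19 between lines and turned to −1.44 between sites without tumor 36, and was 1.16 between sites without tumor 27. Causes were not tested. The 3 tumors a line limit these results more than depth does.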
